A study of Gallus gallus with 4 samples.

Results

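The genes described here are angiopoietins, receptors of vascular endothelial growth factor (VEGF) and regulators of early endothelium and blood. They are ANGPT1, ANGPT2, FLT1, KDR, FLT4, HHEX, TAL1, LMO2, EGFL7 and SOX18. Their members are the probe sets of a chicken Affymetrix array that the platform annotation assigns to 1 of these symbols, which gave 29 probe sets for 10 genes out of 37695 chicken probe sets for 13009 symbols. One further probe set is annotated to both CSF1R and FLT4 and was not counted. The genes were chosen by name, with earlier results of these data known.

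RNA came from the primitive streak region, which holds the precursors of the presomitic mesoderm (PSM), the tissue that later segments into somites. In the HoxA13 group the embryos carried a vector coding for HoxA13 and the nuclear reporter H2B-Venus, driven by the CAGGS promoter, which is active in most cell types. In the Control group the vector coded for H2B-Venus alone. All embryos were electroporated at stage 5 of Hamburger and Hamilton after 24 h of incubation, and were dissected at 9 somites after 14 h of further culture at 38 °C. There were 2 arrays per group, each from a pool of 7 embryos. The labels call them biological replicates, so the spread is that between pools.

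Endothelium and blood arise together from mesoderm that leaves the streak. Endothelial cells receive VEGF through the receptor tyrosine kinases FLT1, KDR and FLT4, and angiopoietins through TEK. The transcription factors TAL1 and LMO2 act in 1 complex in blood and endothelial precursors, and SOX18 belongs to the SoxF factors of vascular endothelium. HHEX is a homeobox factor of early endoderm and of blood island endothelium.

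Signals are linear intensities as the authors deposited them. A signal was called above background when it exceeded the 99th percentile of the array's viral probe sets. This limit was 14.3 and 14.5 for the HoxA13 pools and 12.8 and 16.5 for the Control pools, in the order of their replicate numbers. The transcript of HOXA13 gave 16.3 and 8.09 on the HoxA13 arrays and 11.6 and 24.7 on the Control arrays. The labels do not say whether its probe set matches the vector insert, and it was not used as a check of them. The brightest reporter probe set gave 7038 and 7458 on the HoxA13 arrays and 1293 and 1454 on the Control arrays. Another gave 109 and 76.3 on the HoxA13 arrays, above background, and 3.67 and 2.59 on the Control arrays, below it. Reporter signal thus differed between the groups although both vectors code for H2B-Venus. Whether the groups differed in vector load was not tested. Each array had between 37.8% and 42.7% of its chicken probe sets above this limit. The 27 probe sets of hybridisation spike-ins split the arrays by replicate number, as replicate 2 exceeded replicate 1 in each group for all of them, with a median log2 difference of 0.75. Differences are therefore also given within each replicate number.

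The dissected tissue carried the transcripts of its label. TBXT (brachyury), a factor of streak mesoderm, gave 6483 and 5820 on the HoxA13 arrays and 5873 and 5508 on the Control arrays, and 8 of 9 streak and PSM marker genes had a probe set above background on at least 2 arrays. Many genes that define endothelium were near background in both groups. Over 12 of them (TEK, TIE1, CDH5, PECAM1, ERG, FLI1, EMCN, CD34, VWF, CLDN5, ROBO4 and LYVE1), picked from the lists after their values were seen, the highest signal was 10.3 on the HoxA13 arrays and 15.8 on the Control arrays. Of their 84 values 1 was above background, a PECAM1 value of 14.2 on Control replicate 1. From the same lists ESAM, APLN and the transcription factor genes TCF3, ELK3 and ETS1 were above background on all 4 arrays, and HEY2 on 3.

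ANGPT2 and HHEX passed the test as lower in the HoxA13 group, a call that was lost for both with no filter on dim probe sets, and both bright probe sets of FLT1 were also lower there without passing the test. These signals lay well above background on both Control arrays and below it on at least 1 HoxA13 array. None of the remaining 7 genes passed, and several were near background throughout. Of the 29 probe sets, 10 exceeded the background on 2 or more arrays and could enter the test, or 34.5% against 42% of all chicken probe sets. They represent 8 genes, and ANGPT1 and KDR are the genes with none. Of these 10, the probe sets of ANGPT2 and LMO2 and 1 of FLT1 were above background on both Control arrays and on 0 HoxA13 arrays. These 3 entered the test through the Control arrays alone, where they are high, so their number is no support for a change. Another 2, of HHEX and FLT1, were above background on both Control arrays and 1 HoxA13 array. Of all probe sets that could enter the test, 7.3% were above background on both Control arrays and at most 1 HoxA13 array.

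The test compared HoxA13 minus Control on log2(intensity + 16) with limma over the 15818 chicken probe sets that exceeded the background on 2 or more arrays, with p-values adjusted over all of them. The offset shrinks differences between dim signals. Over all probe sets tested, 0.0632% passed as lower and 0.019% as higher at an adjusted p of 0.05. Of the members, 2 passed as lower and 0 as higher. At an unadjusted p of 0.05 limma gave 4 lower and 0 higher of the 10 members tested, against 2.72% and 2.41% of all probe sets tested. These 4 were the probe sets of ANGPT2 and HHEX and 2 of FLT1. ANGPT2 and 1 of FLT1 entered the test through the Control arrays alone. The members were also chosen with earlier results known, so this count is no support for a change. Of all 29 members, 10 (34.5%) were lower on both HoxA13 arrays than on both Control arrays, against 16% of all chicken probe sets, and 2 (6.9%) were higher, against 17%. Only 5 of these 10 and 1 of these 2 were above background on at least 2 arrays. Over all probe sets tested, 14.7% were lower without overlap and 18.3% higher. With 2 arrays against 2 an exact permutation test of a single probe set cannot give a p below 0.333. The median difference over the 29 members was -0.05 on this scale, and over all chicken probe sets 0.01.

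**Figure D1:**
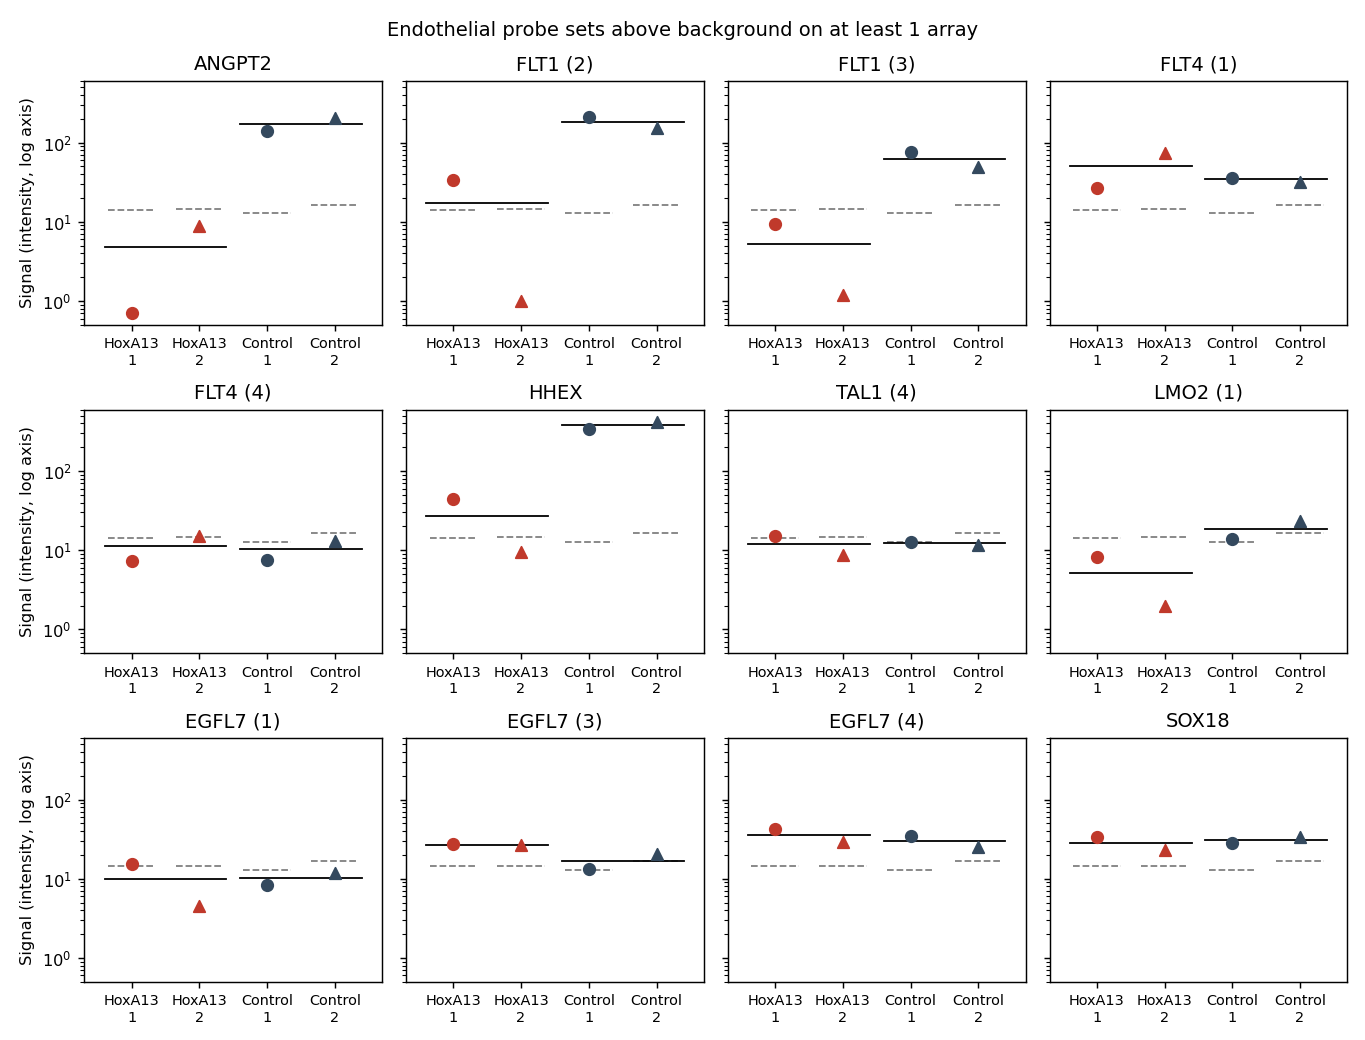
Signal (intensity, log axis) on each array for the 12 endothelial probe sets above background on at least 1 array. Red marks HoxA13 and dark blue Control, circles replicate 1 and triangles replicate 2, solid lines the mean of a group and dashed lines the background of each array. Numbers in brackets tell probe sets of a gene apart, and ANGPT2, HHEX, both FLT1 probe sets shown and LMO2 have all HoxA13 values below all Control values.

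Angiopoietins are secreted ligands of TEK. ANGPT2, which in mammals loosens vessel walls and can block ANGPT1, has a single probe set. In the order of replicate numbers, its signal was 0.698 and 8.91 in the HoxA13 pools, against 141 and 205 in the Control pools. The Control arrays were both far above background and the HoxA13 arrays both below it, so the groups do not overlap. The mean was 4.81 ± 5.81 in the HoxA13 group and 173 ± 45.7 in the Control group (SD, n = 2 each). ANGPT2 was at least 11.8-fold lower in the HoxA13 group, as a ratio of geometric means with each HoxA13 value raised to the background of its array. Its difference on the offset scale was -3.19 ± 0.33 (SE, limma adjusted p = 0.0205). ANGPT2 entered this test through the Control arrays alone, where it is high, and with no filter its adjusted p was 0.104 (limma). With the filter set on the mean over all 4 arrays it was 0.0217 (limma). Within replicate 1 the difference was -3.23 and within replicate 2 it was -3.15. Both HoxA13 values lie below background, where the offset shrinks the gap between them, so the closeness of these differences depends on the offset.

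ANGPT1, the ligand that activates TEK and steadies vessels, was not detectable. Its probe sets reached 3.14 on the HoxA13 arrays and 6.48 on the Control arrays, all below background. The receptors were below background as well. TEK reached 3.52 on the HoxA13 arrays and 4.03 on the Control arrays, and its relative TIE1 reached 3.77 on the HoxA13 arrays and 1.74 on the Control arrays. The drop of ANGPT2 thus stood beside a ligand and receptors that the arrays did not detect in either group. Among the other angiopoietin receptors and relatives, 0 of 6 measured genes had a probe set that could be tested. Their brightest were ANGPTL4, a secreted regulator of lipoprotein lipase, and ANGPTL2. ANGPTL4 gave 9.20 and 4.08 on the HoxA13 arrays and 7.23 and 13.7 on the Control arrays.

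FLT1, the VEGF receptor that binds VEGFA tightly and in mammals also exists as a soluble trap, has 3 probe sets. The brightest gave 33.6 and 0.991 in the HoxA13 pools, against 212 and 153 in the Control pools. The groups do not overlap, and of the HoxA13 arrays replicate 1 alone was above background. The mean was 17.3 ± 23.1 in the HoxA13 group and 183 ± 41.6 in the Control group (SD, n = 2 each).

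Its difference on the offset scale was -2.76 ± 0.47 (SE, limma adjusted p = 0.122), so it missed the test. Within replicate 1 it was -2.20 and within replicate 2 it was -3.32. The second probe set gave 9.26 and 1.18 on the HoxA13 arrays and 76.2 and 48.7 on the Control arrays. It was below background on both HoxA13 arrays and at least 4.23-fold lower there. Its difference was -1.89 ± 0.32 (SE, limma adjusted p = 0.122), with -1.87 within replicate 1 and -1.91 within replicate 2. The remaining probe set was below background on all arrays, at 6.50 and 0.522 on the HoxA13 arrays and 8.28 and 6.93 on the Control arrays. With 1 array left out and the filter still set on all 4, the difference of the brightest probe set ran from -3.53 to -1.98. That of the second ran from -2.17 to -1.61.

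KDR, the main signalling receptor for VEGFA and a marker of angioblasts, was below background on all 4 arrays at each of its 5 probe sets. Their highest signal was 11.5 on the HoxA13 arrays and 13.8 on the Control arrays. The Control value came from a probe set with 0.73 and 1.12 on the HoxA13 arrays and 4.91 and 13.8 on the Control arrays. Those groups do not overlap, but all 4 values lie in the range of the viral probe sets.

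FLT4, the receptor of VEGFC that later marks lymphatic vessels, had 1 of 5 probe sets above background on at least 2 arrays. It gave 26.9 and 73.2 on the HoxA13 arrays and 36.2 and 32.2 on the Control arrays. Replicate 2 of HoxA13 was the brightest array and replicate 1 the dimmest, so the groups overlap. The difference was 0.30 ± 0.37 (SE, limma adjusted p = 0.999), with -0.28 within replicate 1 and 0.89 within replicate 2. The other 4 probe sets reached 15.3 on the HoxA13 arrays and 13.3 on the Control arrays.

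The ligands and coreceptors gave 0 calls in either direction among 5 measured genes, of which 4 could be tested. Over all probe sets tested, the shares were 0.0632% lower and 0.019% higher. Their brightest were NRP2, a neuropilin that serves as coreceptor for VEGFC, and VEGFC itself. NRP2 gave 76.5 and 65.8 on the HoxA13 arrays and 64.4 and 94.3 on the Control arrays. VEGFC gave 137 and 29.1 on the HoxA13 arrays and 72.6 and 17.8 on the Control arrays, brighter on replicate 1 in both groups. VEGFA and NRP1 were picked after their values were seen. VEGFA, the ligand of FLT1 and KDR, gave 12.3 and 10.4 on the HoxA13 arrays, both below background, and 23.1 and 58.4 on the Control arrays (limma adjusted p = 0.776). Its coreceptor NRP1 gave 37.6 and 14.8 on the HoxA13 arrays and 70.6 and 44.0 on the Control arrays (limma adjusted p = 0.954). Both had all HoxA13 values below all Control values without passing.

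HHEX also has a single probe set. It gave 44.2 and 9.39 in the HoxA13 pools, against 336 and 419 in the Control pools. The groups do not overlap, and HoxA13 replicate 1 stayed above background where replicate 2 did not. The mean was 26.8 ± 24.6 in the HoxA13 group and 378 ± 58.4 in the Control group (SD, n = 2 each). Its difference was -3.32 ± 0.40 (SE, limma adjusted p = 0.0352), with -2.55 within replicate 1 and -4.10 within replicate 2. On the offset scale 3 of the 15818 probe sets tested had a difference as low as that of HHEX or lower, itself included, and 4 as low as that of ANGPT2.

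**Figure D2:**
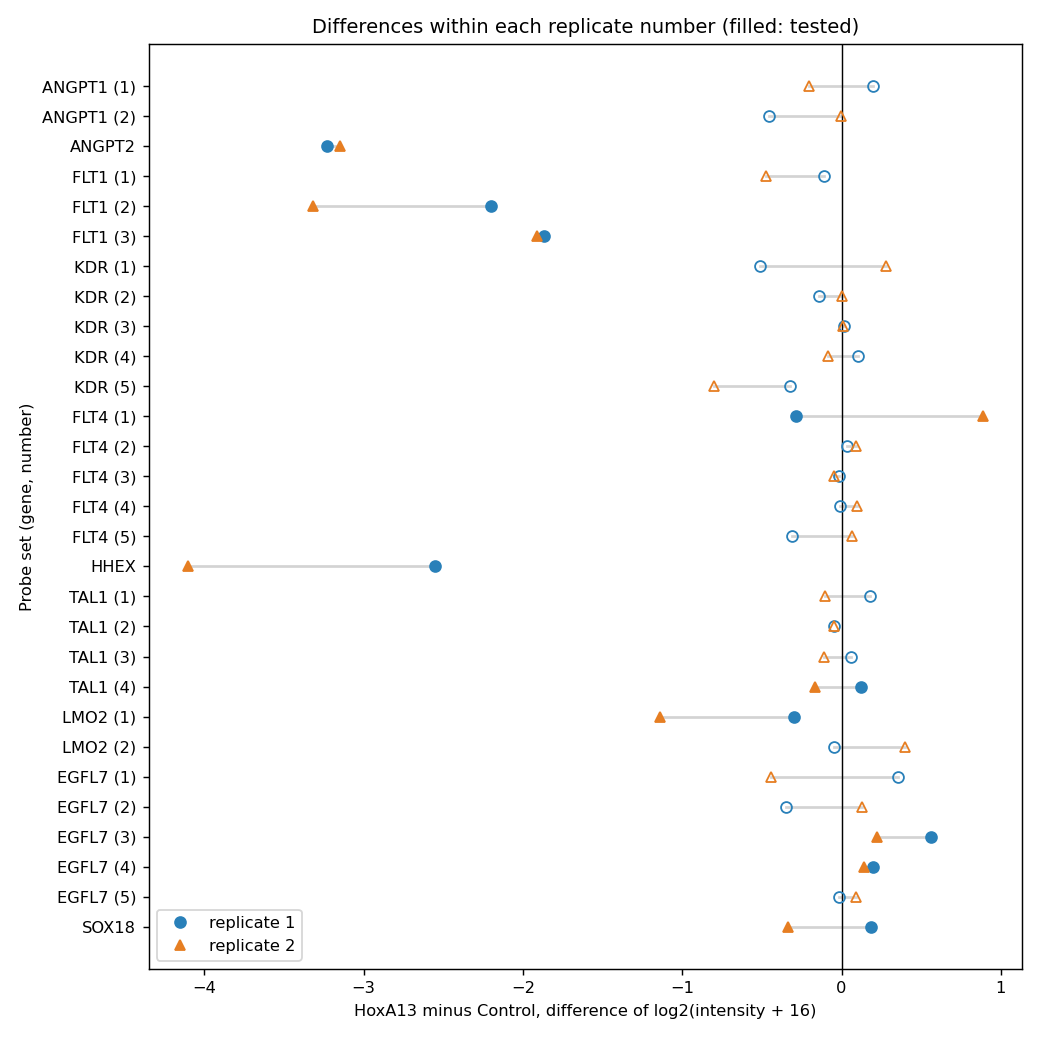
Difference of log2(intensity + 16), HoxA13 minus Control, within replicate 1 (circles) and within replicate 2 (triangles) for all 29 probe sets, with filled marks for the 10 that were tested. ANGPT2, HHEX and 2 FLT1 probe sets lie at or below -1.87 within both replicate numbers, and every other probe set lies between -1.14 and 0.89.

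The calls of ANGPT2 and HHEX depended on the scale, on the probe sets tested with them and on the prior of the fit. Both were lost when all 37695 chicken probe sets were tested, where 0.00265% passed as lower and 0% as higher (limma adjusted p = 0.104 for ANGPT2 and 0.136 for HHEX) and on log2 intensity with no offset, filter or intensity trend (0.633 and 0.631), where their differences were -6.09 and -4.20. They were also lost with log2(intensity + 1) (limma adjusted p = 0.0701 for ANGPT2 and 0.0887 for HHEX) and, on the scale and probe sets reported, with a prior without trend or robust estimation (0.0549 and 0.0842). In each fit that left out 1 array both stayed lower, with the filter still set on all 4 arrays. Their differences then ran from -3.48 to -2.90 for ANGPT2 and from -3.95 to -2.70 for HHEX. ANGPT2 entered the fits without a Control array only because the filter still counted that array.

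TAL1, a master regulator of blood and endothelial precursors, was at the edge of detection at 1 of its 4 probe sets. That one gave 15.3 and 8.77 on the HoxA13 arrays and 12.8 and 11.8 on the Control arrays. The groups overlap, with a difference of -0.02 ± 0.30 (SE, limma adjusted p = 0.999), 0.12 within replicate 1 and -0.16 within replicate 2. The other 3 stayed at or below 3.04 on the HoxA13 arrays and 3.55 on the Control arrays.

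LMO2, the LIM-only partner of TAL1, had 1 of 2 probe sets above background, on the Control arrays alone. It gave 8.33 and 2.0 on the HoxA13 arrays and 13.9 and 23.6 on the Control arrays. With each HoxA13 value raised to the background of its array, it was at least 1.26-fold lower. That bound comes from Control replicate 2 alone, as Control replicate 1 lies below the background of 14.3 on HoxA13 replicate 1. The groups do not overlap and both Control values lie close to background. The difference was -0.72 ± 0.32 (SE, limma adjusted p = 0.963), with -0.30 within replicate 1 and -1.14 within replicate 2. The second probe set gave 2.30 and 7.46 on the HoxA13 arrays and 2.92 and 1.79 on the Control arrays, which overlap and lie below background.

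EGFL7, a protein that endothelial cells secrete into the matrix, had 2 of 5 probe sets above background on all 4 arrays. The brighter gave 42.0 and 29.2 on the HoxA13 arrays and 34.6 and 25.1 on the Control arrays, and the groups overlap. The difference was 0.17 ± 0.29 (SE, limma adjusted p = 0.999), with 0.20 within replicate 1 and 0.14 within replicate 2. The second gave 27.2 and 26.4 on the HoxA13 arrays and 13.3 and 20.4 on the Control arrays. All its HoxA13 values were above its Control values, and its difference of 0.39 ± 0.27 (SE, limma adjusted p = 0.999) did not pass.

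SOX18 gave 33.9 and 23.3 on the HoxA13 arrays and 27.96 and 33.6 on the Control arrays. The groups overlap, with a difference of -0.08 ± 0.29 (SE, limma adjusted p = 0.999), and all 4 values were above background. Within replicate 1 the difference was 0.18 and within replicate 2 it was -0.33. On the same arrays 2 EGFL7 probe sets and SOX18 were thus detected in both groups. ANGPT2, HHEX and 2 FLT1 probe sets were below background on at least 1 HoxA13 array and above it on both Control arrays.

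**Figure D3:**
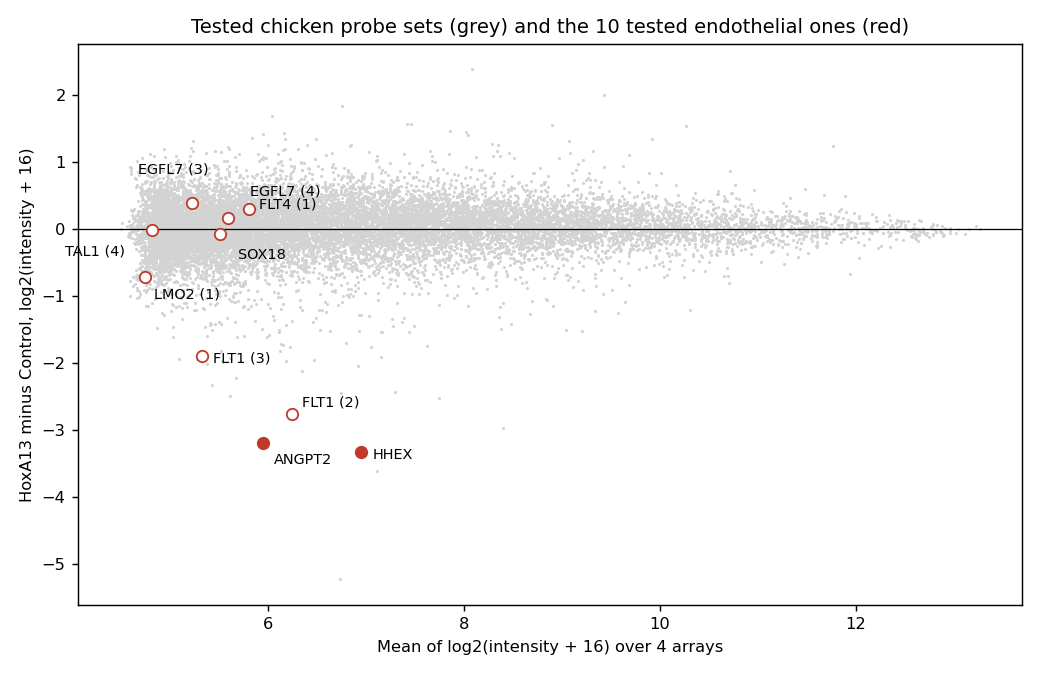
Mean of log2(intensity + 16) over the 4 arrays (horizontal) against the HoxA13 minus Control difference on the same scale (vertical) for the 15818 tested probe sets in grey and the 10 tested endothelial ones in red, filled where the adjusted p passed. ANGPT2, HHEX and both tested FLT1 probe sets lie at its lower edge, at -1.89 or below, and the other 6, between -0.72 and 0.39, lie within it.

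Profiles over the 4 arrays were compared by the Euclidean distance between values of log2(intensity + 16), each probe set centred on its own mean, over 12439 other tested probe sets with a symbol. With 4 arrays this describes likeness and carries no test. The nearest to HHEX was the brightest FLT1 probe set at a distance of 0.797, and the nearest to that FLT1 probe set was HHEX. Both are dimmer on HoxA13 replicate 2 than on replicate 1. Next to either came MTUS1, a microtubule-associated protein gene, at 0.952 from HHEX and 0.937 from FLT1. MTUS1 gave 44.2 and 18.9 on the HoxA13 arrays and 190 and 288 on the Control arrays. The third for HHEX was the galectin gene LGALS3 at 1.09, and for FLT1 the laminin gene LAMA2 at 0.994. The nearest to ANGPT2 were HSPA2, a heat shock protein gene, at 0.833, DPYS, an enzyme of pyrimidine breakdown, at 0.896, and LGALS3 at 0.943. ANGPT2 thus did not have HHEX or FLT1 among its 3 nearest profiles. Both HoxA13 values of ANGPT2 lie below background, so their rise from replicate 1 to replicate 2 is not read as a difference in pattern.

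Beyond the members, endothelial and blood genes in 6 lists gave 0 calls in either direction. Over all probe sets tested 0.0632% passed as lower and 0.019% as higher, so 0 calls is near those shares. Of 85 genes listed 61 were measured and 14 had a probe set that could be tested. The smallest adjusted p among them was 0.776 (limma). At an unadjusted p of 0.05 limma gave 2 lower and 0 higher of their 20 probe sets tested, against the same 2.72% and 2.41% of all. These 2 were of VEGFA and NRP1. VEGFA entered the test through the Control arrays alone, where it is high, so this count is no support for a change. Taking the brightest probe set of each of the 61, 33 had a higher and 28 a lower HoxA13 mean, with a median difference of 0.02 against 0.01 over all chicken probe sets. Most of the 61 are dim, and the offset draws their differences towards 0. Over the 14 whose brightest probe set was tested, 5 were higher and 9 lower, with a median of -0.20 against 0.03 over all probe sets tested. The groups did not overlap for 9 higher and 10 lower genes, where 17% and 16% of all chicken probe sets did so.

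Among 20 measured transcription factors of endothelium and blood, 4 could be tested. The brightest were TCF3, the E protein that partners TAL1, with 355 and 323 on the HoxA13 arrays and 245 and 403 on the Control arrays, and the ETS factor gene ELK3. ELK3 gave 356 and 173 on the HoxA13 arrays and 213 and 138 on the Control arrays. Both overlap between the groups. Among 18 measured surface and junction genes 2 could be tested. ESAM, an endothelial adhesion molecule gene, gave 37.8 and 53.3 on the HoxA13 arrays and 47.4 and 71.6 on the Control arrays. APLN, the ligand apelin, gave 26.2 and 30.8 on the HoxA13 arrays and 60.8 and 24.4 on the Control arrays.

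Of 6 measured arterial and venous genes, NOTCH1 and the netrin receptor gene UNC5B were the brightest and both were lower on the HoxA13 arrays without overlap. NOTCH1 gave 258 and 266 on the HoxA13 arrays and 313 and 311 on the Control arrays. UNC5B gave 190 and 175 on the HoxA13 arrays and 230 and 273 on the Control arrays. Neither passed (limma adjusted p = 0.999 for each). In their list these 2 genes were lower without overlap and 1 was higher, against 16% and 17% of all chicken probe sets. The brightest probe sets of DLL4, JAG2, EFNB2 and NRARP were below background on every array. Of 6 measured globin and red cell genes, TFRC, the transferrin receptor gene that most dividing cells use, gave 349 and 436 on the HoxA13 arrays and 245 and 326 on the Control arrays. TFRC was higher without overlap and did not pass (limma adjusted p = 0.999). In its list 3 genes were higher without overlap and 0 lower, against 17% and 16% of all chicken probe sets. Besides TFRC these were HBAD and HBA1, both below background on every array. The globin gene HBE gave 3.57 and 24.7 on the HoxA13 arrays and 34.2 and 24.1 on the Control arrays.

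**Figure D4:**
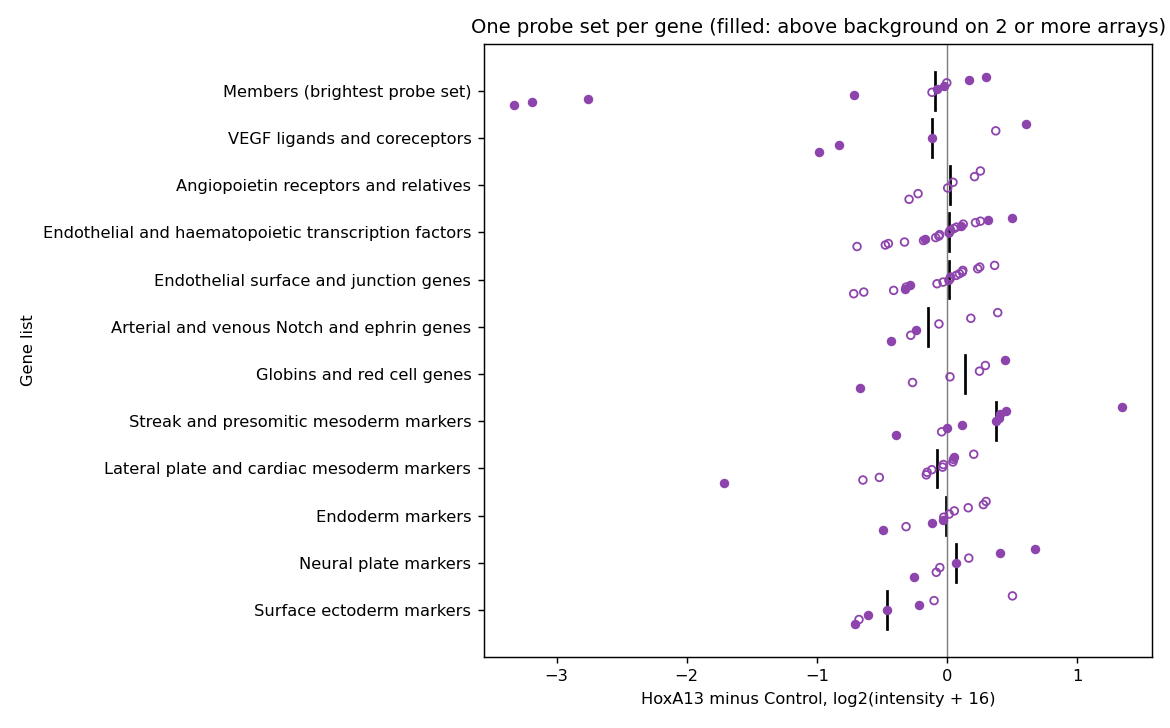
HoxA13 minus Control difference of log2(intensity + 16) for the brightest probe set of each measured gene, by list, with filled points for genes whose probe set was above background on at least 2 arrays and a black line at the median of each list. ANGPT2, HHEX and FLT1 lie between -3.32 and -2.76, and no gene of the 6 other endothelial and blood lists lies below -0.98.

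Markers of other tissues of the region were read on the same arrays. HHEX is also an endoderm gene. Of 10 endoderm markers 3 could be tested and 0 passed, where 0.0632% of all probe sets tested passed as lower and 0.019% as higher. Signals summed over the list were 84.6 and 96.2 on the HoxA13 arrays and 108 and 90.7 on the Control arrays. The brightest was CDX1, a caudal homeobox gene that posterior mesoderm also expresses, with 17.7 and 15.3 on the HoxA13 arrays and 31.4 and 27.8 on the Control arrays. All 4 values were above background and the groups do not overlap, with a difference of -0.49 that did not pass (limma adjusted p = 0.996). SOX17 was below background on every array. FOXA2 gave 19.4 and 15.7 on the HoxA13 arrays and 20.6 and 19.9 on the Control arrays, lower without overlap. Its difference was -0.11 (limma adjusted p = 0.999), and TTR, also tested, overlapped between the groups. Over the 10 endoderm markers 2 were lower without overlap and 3 higher, against 16% and 17% of all chicken probe sets. Lateral plate and cardiac markers summed to 81.1 and 107 on the HoxA13 arrays and 179 and 232 on the Control arrays, and 2 of 12 could be tested. PRRX1, a homeobox gene of lateral mesoderm, made up most of that gap with 16.6 and 29.9 on the HoxA13 arrays and 109 and 113 on the Control arrays (limma adjusted p = 0.149). BMP4, also tested, overlapped between the groups, with a difference of 0.06. GATA6 and GATA5 were lower without overlap, with differences of -0.65 and -0.52. GATA6 was below background on every array and GATA5 above it on Control replicate 2 alone. Over the 12 lateral plate and cardiac markers 4 were lower without overlap and 1 higher, against the same 16% and 17%. HAND1, FOXF1 and GATA4 were below background throughout.

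Surface ectoderm markers summed to 2083 and 1239 on the HoxA13 arrays and 2993 and 2218 on the Control arrays. Of 7 measured genes 4 were tested and 0 passed, where 0.0632% of all probe sets tested passed as lower and 0.019% as higher. EPCAM gave 1576 and 1029 on the HoxA13 arrays and 2603 and 1687 on the Control arrays, lower without overlap (limma adjusted p = 0.826). Of the 7 measured surface ectoderm markers 2 were lower without overlap and 1 higher, against 16% and 17% of all chicken probe sets. Neural plate markers summed to 282 and 172 on the HoxA13 arrays and 222 and 207 on the Control arrays. Of 7 measured genes 2, PAX6 and ZIC1, were higher without overlap and 0 lower, against 17% and 16% of all chicken probe sets. ZIC1 was below background on every array and PAX6 above it on the HoxA13 arrays alone. Streak and PSM markers summed to 16346 and 14942 on the HoxA13 arrays and 14765 and 11640 on the Control arrays. Of these 9 genes 4 were higher without overlap and 1 lower, against 17% and 16% of all chicken probe sets. Among these markers FGF8 gave 1411 and 1637 on the HoxA13 arrays and 637 and 545 on the Control arrays. It was higher without overlap and did not pass (limma adjusted p = 0.0907). The part of any such shift in the values of ANGPT2, HHEX and FLT1 was not tested. In dissected tissue, fewer cells of a type and less RNA per cell cannot be told apart.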

How the data were processed

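Total RNA from 4 pools of chicken embryos was measured on a chicken Affymetrix array after double amplification, per the labels' protocols. The authors deposited linear intensities, 1 per probe set. The submitters' processing notes name R 2.12.1. How signals were summarised, corrected for background and scaled is not given in the sources used here. The array's 38535 probe sets comprised 37695 for chicken, 687 for viruses, 57 for reporters and 96 as controls. The platform annotation gave 1 symbol to 27168 chicken probe sets, several to 177 and none to 10350. Symbols can be old.

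The difference HoxA13 minus Control was fitted with limma 3.58.1 in R 4.3.3 (lmFit, eBayes with trend and robust), two-sided, with Benjamini-Hochberg adjustment over all 15818 probe sets tested and a threshold of 0.05. The offset was 16 and the filter above background on at least 2 arrays. The members, lists and this setting were chosen with earlier results of these data known, and the setting gives more calls than the fits without filter or offset. Named were all members, list genes that passed, the 2 brightest of each list and the 3 nearest profiles of ANGPT2, HHEX and FLT1. Marker list genes are given by list sum, with a few chosen after their values were seen. Scripts were tested on simulated data. Alternatives covered offset, filter, prior, scaling, the replicate number as a block and leaving out each array. No sequences are shown. With 2 arrays per group, the number of arrays limits the precision. No 2 arrays held identical values.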

Additional observations from a re-analysis of the deposited data

How the results depend on the processing

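The setting reported passed 3 probe sets as higher and 10 as lower, and 2 of those lower were members. With log2(intensity + 1) it was 0 higher and 2 lower, with no filter 0 and 1, with a prior without trend or robust estimation 0 and 1, and with no offset, filter or trend 0 and 0, and in each of these 0 members passed as lower. At an unadjusted p of 0.05 limma gave 5 of 29 members with no filter, against 3.85% of all probe sets. These were the probe sets of ANGPT2 and HHEX, 1 of LMO2 and 2 of FLT1, from members chosen with earlier results known. Leaving out 1 array gave between 0 and 23 higher and between 5 and 58 lower, the 23 and 58 without Control replicate 1. ANGPT2 and HHEX passed with log2(intensity + 32), the filter on the mean over 4 arrays, quantile normalization and median scaling. They also passed with the replicate number as a block, with and without the filter. In the fits above where 0 members passed as lower, their adjusted p went up to 0.633 and 0.631 (limma). Both were lower in all 14 alternatives, which include leaving out each array with the filter still set on all 4 arrays. The replicate number as a block gave 53 higher and 107 lower (0.676% of probe sets lower), 4 of them members: ANGPT2, HHEX and both bright FLT1 probe sets (adjusted p = 0.00012 and 0.0013). With it PRRX1 (limma adjusted p = 0.0031) and EPCAM (0.013) passed as lower too, and the streak marker FGF8 passed as higher (0.00041). Without the filter, a combination chosen after seeing the data, the block gave 29 and 74, and the same 4 members. The labels tie the number to no shared day. Deviations of equal-numbered arrays correlated at 0.30 over probe sets. The 27 hybridisation spike-ins all read higher on replicate 2 than on replicate 1 within each group, by a median log2 difference of 0.75. What equal-numbered arrays share beyond the number was not tested. Differences near 0 changed sign when 1 array was left out. They ranged from -0.23 to 0.83 for FLT4, from -0.19 to 0.15 for TAL1 (0.0047 without Control replicate 1), from -0.013 to 0.35 for the brighter EGFL7 probe set and from -0.25 to 0.095 for SOX18 (0.010 without Control replicate 2). The cause was not tested. A lone array is assumed to vary like the other group. Signals near background limit 19 of 29 members, which were not tested at the setting reported.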
